A study of Mus musculus with 16 samples.

Results

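The comparison described here sets mouse trophectoderm stem cells that had been assembled with induced pluripotent stem cells and then given BMP4 against the same kind of stem cell cultured alone and left untreated. Its members were taken from the labels of the deposited FPKM columns, and they are 4 of the 16 libraries: 2 of the trophectoderm part of assembled structures with BMP4 and 2 of lone trophectoderm cells without it. FPKM is a number of sequenced fragments corrected for transcript length and library total. The study mixed GFP-positive induced pluripotent stem cells (iPSC) with RFP-positive trophectoderm stem cells (TSC, also labelled TSCC), and the mixed cells formed structures with 1 green and 1 red part. iPSC alone, TSC alone and both separated parts were each sampled without and with BMP4, in 2 libraries per group.

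All groups grew on 5% Matrigel in a serum-containing medium called ITSC, supplemented with heparin (500 ng/ml) and FGF4 (12.5 ng/ml), so both FGF4 and serum were present in the controls too. After 2 days the cultures received this medium with or without BMP4 for 24 hours, and were collected on day 3; the BMP4 dose is not stated in these sources. "Lone TSC" below means TSC cultured alone without BMP4. "Assembled TSC with BMP4" means the red part of a structure from a BMP4 culture, cut by hand from its green part under a stereomicroscope. The intermediate groups are "lone TSC with BMP4" and "assembled TSC without BMP4". Each library was made with Smart-seq2, a full-length cDNA method for very small inputs, from 1 picked colony or part. The main comparison changes both factors, assembly and BMP4, at once, and alone it cannot tell them apart. Because each library is a bulk sample of many cells, fewer cells of a type and less RNA per cell cannot be told apart.

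Trophoblast stem cells are the precursors of the placenta. In culture they are kept undifferentiated by FGF signalling through ERK, which sustains the transcription factors Cdx2, Eomes, Esrrb and Elf5; when FGF is withdrawn they turn on genes of the ectoplacental cone, giant cells and syncytiotrophoblast. In the mouse embryo FGF4 comes from the neighbouring epiblast, and the extraembryonic ectoderm in turn supplies BMP4. BMP4 binds serine/threonine kinase receptors that phosphorylate SMAD1, SMAD5 and SMAD9, which with SMAD4 switch on targets such as the Id genes, Smad6 and Bambi.

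The 250 bases before the transcription start are printed for 4 genes on which the results turn, so that promoters of genes that rose (Id2, Etv5) and genes that fell (Plac1, Krt8) can be read beside their values. Id2 and Etv5 are the BMP-SMAD and FGF-ERK targets that rose most, and Plac1 and Krt8 the differentiated trophoblast gene and the keratin or junction gene that fell most, among members with an entry in the RefSeq promoter table (GRCm38.p6); where 2 starts are listed (Etv5 and Plac1) the first was used. BMP-SMAD targets moved in both directions, and the choice of one that rose is only for display. The windows are chr12:25096093-25096342 for Id2, chr16:22439571-22439820 for Etv5, chrX:53240111-53240360 for Plac1 and chr15:102004343-102004592 for Krt8, all on the minus strand and printed 5′ to 3′ towards the start. Capitals mark matches on either strand to GGCGCC, a GC-rich motif bound by SMAD1 and SMAD5, to CCGGAAG, a core motif of ETS factors such as Etv4 and Etv5, and to GCCNNNGGC, the motif of AP-2 factors such as Tfap2c.
Id2: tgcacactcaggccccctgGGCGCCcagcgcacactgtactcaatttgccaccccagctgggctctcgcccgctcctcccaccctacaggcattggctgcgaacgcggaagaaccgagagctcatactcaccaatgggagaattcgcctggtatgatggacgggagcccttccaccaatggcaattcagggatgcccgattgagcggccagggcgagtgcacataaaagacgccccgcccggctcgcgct
Etv5: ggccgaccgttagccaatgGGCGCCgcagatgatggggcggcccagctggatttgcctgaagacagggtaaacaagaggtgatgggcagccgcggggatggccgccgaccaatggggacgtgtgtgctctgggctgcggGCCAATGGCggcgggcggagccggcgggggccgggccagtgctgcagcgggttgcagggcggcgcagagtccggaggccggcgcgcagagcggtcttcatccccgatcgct
Plac1: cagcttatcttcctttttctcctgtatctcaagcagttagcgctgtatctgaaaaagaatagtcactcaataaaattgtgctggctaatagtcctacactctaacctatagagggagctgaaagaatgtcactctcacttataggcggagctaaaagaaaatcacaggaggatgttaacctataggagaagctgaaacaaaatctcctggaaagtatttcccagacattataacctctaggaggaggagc
Krt8: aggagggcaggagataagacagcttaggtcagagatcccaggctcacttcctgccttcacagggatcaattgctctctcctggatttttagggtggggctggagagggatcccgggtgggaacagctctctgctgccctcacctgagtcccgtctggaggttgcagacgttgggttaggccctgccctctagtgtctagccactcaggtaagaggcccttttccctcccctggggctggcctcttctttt
GGCGCC begins 231 bases before the start in both Id2 and Etv5, and Etv5 also holds GCCNNNGGC beginning 111 bases before the start, with no overlap between its motifs. Plac1 and Krt8 hold no match to any of the 3 motifs in this window. Of 32851 RefSeq windows of this length, 9.59% hold GGCGCC, 6.91% hold CCGGAAG and 13.7% hold GCCNNNGGC. Among tested members with an entry, GGCGCC occurs in 3 of 10 BMP-SMAD targets, 5 of 13 FGF-ERK targets, 5 of 16 differentiated trophoblast genes and 1 of 15 keratin and junction genes. CCGGAAG occurs in 0, 0, 0 and 2 of these, and GCCNNNGGC in 4, 4, 5 and 3. A match describes letters in a window and is no evidence of binding.

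Replicates correlated across genes on the log2 scale with r = 0.942 in lone TSC and 0.961 in assembled TSC with BMP4, and they lay over 2-fold apart for 2083 and 986 of the 13406 tested genes. Lone TSC had the most such genes of the 8 groups. Sco2 is listed at 4.99e-17 FPKM in a lone TSC library, a value that cannot be a multiple of 1 read, and the read depth of the libraries is unknown. No label says that replicates came from separate cultures, so a p-value here reflects no more than the variation from library to library, which may be technical.

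The label TSC was checked against marker genes. Lone TSC had abundant trophoblast transcripts, such as Gata3 (47.0 and 34.3 FPKM) and Krt8 (2932 and 1367 FPKM), but several genes that define the stem cell state were near 0. Eomes stood at 0.219 and 0.0844 FPKM and Esrrb at 0 and 0.140 FPKM. Cdx2 was near 0 in 1 lone library only (0 and 3.89 FPKM), and its difference, given below, did not pass. Of 32 trophoblast stem cell genes, 9 were below 1 FPKM in both lone TSC libraries and 0 were so in assembled TSC with BMP4. The summed level of the 32 genes went the other way. It was 13428 and 8331 FPKM in lone TSC and 2120 and 2894 FPKM in assembled TSC with BMP4. The name TSC is therefore used as the label gives it. Carry-over from the iPSC part was looked for in 14 iPSC-side markers, whose summed level was 203 and 298 FPKM in lone TSC, 248 and 711 FPKM in assembled TSC with BMP4, 485 and 253 FPKM in lone TSC with BMP4, 799.6 and 1202 FPKM in assembled TSC without BMP4 and 1362 to 4309 FPKM in the 8 iPSC-origin libraries. Pou5f1, the central pluripotency factor, stood at 0.137 and 2.10 FPKM and Nanog at 0.999 and 1.25 FPKM in assembled TSC with BMP4, against 49.5 to 326 FPKM and 24.4 to 37.4 FPKM in the iPSC-origin libraries. Neither differed from lone TSC beyond the spread (adjusted p = 0.729 and 0.849). Assembled TSC without BMP4, which enters the single-factor and interaction results, had the highest summed level of the 4 TSC groups. Replicate 2 of assembled TSC with BMP4 was the higher of its pair.

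Between assembled TSC with BMP4 and lone TSC, 3161 of 13406 genes (23.6%) passed an adjusted p of 0.05 in limma, 1402 of them higher (10.5% of those tested) and 1759 lower (13.1%). In none of the called genes did the libraries of the 2 groups overlap, which was also so for 58.3% of all tested genes. The median difference over all genes was 0.00 on the log2(FPKM + 1) scale, on which differences are given below as the value ± SE with n = 2 libraries per group. This scale understates the change of genes with low levels. Upper quartile rescaling moved the median of all genes to 0.10 and gave 1815 genes higher and 1519 lower. Leaving out predicted names and rescaling moved it to -0.14 and gave 1158 higher and 2124 lower. The spread behind the test is shared over all 8 groups. With the 4 libraries alone, limma called 7 genes, all higher and all with predicted names (3692 at an unadjusted p under 0.05). None of the 136 called genes that the naming rule picked passed in that fit. With the 8 TSC-origin libraries the count was 1643, and 105 of the 136 passed. Without replicate 1 of assembled TSC with BMP4 the count was 1617, and without its replicate 2 it was 2066. Of the 3161 genes, 1134 (35.9%) were called without each of the 4 libraries in turn.

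**Figure D1:**
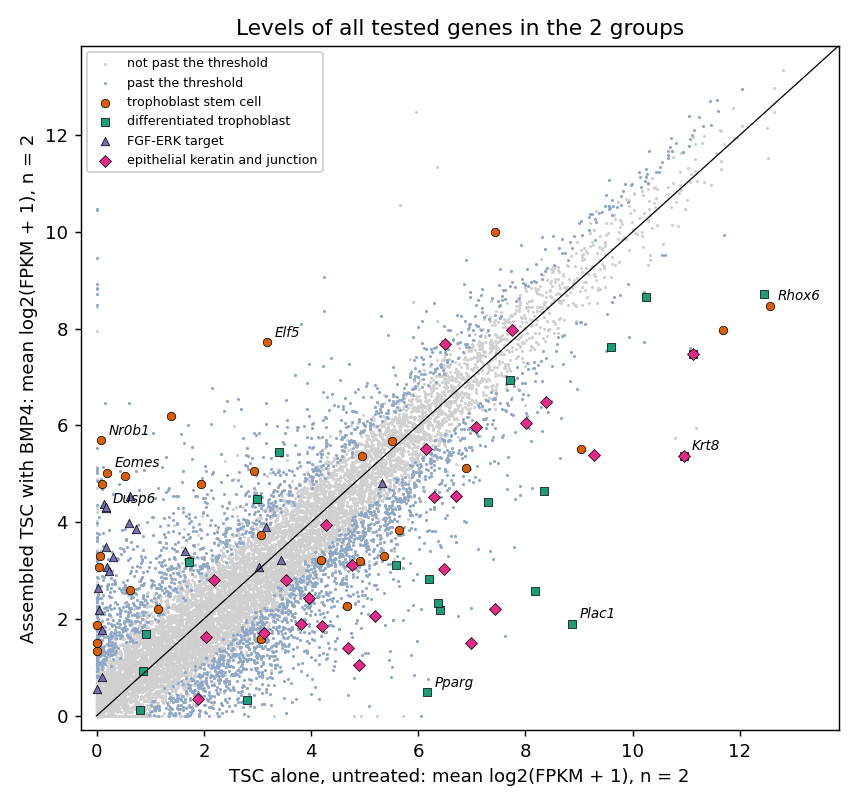
Mean log2(FPKM + 1) of the 13406 tested genes in lone TSC (horizontal) and assembled TSC with BMP4 (vertical), 2 libraries each, with the line of equal levels and the members of 4 gene lists as coloured symbols. Several FGF-ERK targets and genes such as Eomes and Nr0b1 sit at the left edge, near 0 in lone TSC, while differentiation and keratin genes such as Plac1, Pparg and Krt8 lie far below the line.

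The genes that rose most included several that were nearly undetected in lone TSC. Duoxa2, the maturation factor of a hydrogen peroxide-producing oxidase, stood at 0 and 0.245 FPKM in lone TSC and 88.6 and 85.0 FPKM in assembled TSC with BMP4 (6.30 ± 0.36, adjusted p = 8.25e-07). Inpp1, an inositol polyphosphate phosphatase, went from 0.106 and 1.08 to 103 and 74.7 FPKM (5.87 ± 0.32, adjusted p = 8.25e-07). Nr0b1, the orphan nuclear receptor Dax1 of stem cell networks, went from 0.0476 and 0.0705 to 80.5 and 31.9 FPKM (5.61 ± 0.69, adjusted p = 1.99e-04). Both assembled libraries stood above both lone ones in each, as the naming rule required, and the assembled replicates of Nr0b1 differed by over 2-fold.

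Car2, carbonic anhydrase 2, was already present in lone TSC at 14.0 and 22.8 FPKM and reached 636 and 445 FPKM (4.82 ± 0.39, adjusted p = 1.29e-05). Il5ra, a cytokine receptor chain, stood at 0.0493 and 0 against 29.9 and 25.9 FPKM (4.81 ± 0.35, adjusted p = 5.98e-06). A group of retinoid genes was among the largest increases as well. Crabp1, which binds retinoic acid in the cytosol, stood at 0.129 and 0 against 30.6 and 26.9 FPKM (4.80 ± 0.33, adjusted p = 4.45e-06), and Rbp4, the retinol carrier, at 0 and 0 against 61.7 and 12.2 FPKM (4.85 ± 0.58, adjusted p = 1.75e-04). Cyp26a1, which degrades retinoic acid, stood at 0.0974 and 0.0721 against 47.0 and 24.8 FPKM (5.02 ± 1.32, adjusted p = 0.016), but the call was lost without replicate 1 of lone TSC, replicate 2 of lone TSC or replicate 1 of assembled TSC with BMP4 (adjusted p = 0.0565 to 0.0972). These 3 retinoid genes were grouped after their values were seen. The naming rule admitted only genes whose libraries did not overlap between the 2 groups, so the separation of these 3 adds no support.

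Genes that fell most were trophoblast and epithelial genes at high levels in lone TSC. Plac1, a gene the placenta needs for normal growth, went from 745 and 293 FPKM to 1.50 and 4.55 FPKM (-6.97 ± 0.78, adjusted p = 1.02e-04). Mbnl3, an RNA-binding splicing factor, went from 178 and 217 to 0.0880 and 7.98 FPKM (-5.98 ± 0.75, adjusted p = 2.17e-04). Anxa1, a calcium-dependent membrane-binding protein, went from 65.5 and 77.7 to 0.166 and 1.46 FPKM (-5.42 ± 0.57, adjusted p = 6.59e-05). Every assembled library lay below every lone library in these genes, as the naming rule required. Replicate 1 of assembled TSC with BMP4 was the lowest in all 3.

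Sfn, the 14-3-3 protein stratifin of epithelial cells, stood at 82.6 and 192 against 0.829 and 11.00 FPKM (-4.76 ± 0.75, adjusted p = 9.12e-04). Epn3, an endocytic adaptor, and Aldh3b2, an aldehyde dehydrogenase, fell by 4.70 ± 0.41 and 4.89 ± 0.27, and both stood below 1 FPKM in both assembled libraries. The 24 genes, 12 in each direction, were named by a rule that left out predicted and small RNA names and low levels. Entries with predicted names, such as Gm22710 (10.48), rose more.

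Genes of the trophoblast stem cell state moved in both directions. Of 32 tested members, 13 rose (40.6%, beside 10.5% of all genes) and 8 fell (25.0%, beside 13.1%). The list's median difference was 1.40, against 0.00 over all genes. Eomes, a T-box factor required for trophoblast stem cells, stood at 0.219 and 0.0844 FPKM in lone TSC and at 29.2 and 33.8 FPKM in assembled TSC with BMP4 (4.82 ± 0.35, adjusted p = 6.47e-06). Esrrb, an orphan receptor downstream of FGF in these cells, went from 0 and 0.140 to 28.1 and 25.4 FPKM (4.70 ± 0.68, adjusted p = 5.26e-04). Both genes were close to absent in both lone libraries and similar in the 2 assembled ones. Elf5, an ETS factor that marks trophoblast commitment, went from 5.51 and 11.6 to 197 and 224 FPKM (4.54 ± 1.12, adjusted p = 0.0114). Its groups were widely separated, yet the call was lost without replicate 1 of lone TSC, replicate 1 of assembled TSC with BMP4 or replicate 2 of assembled TSC with BMP4 (adjusted p = 0.0561 to 0.0629).

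Ddah1, an enzyme that removes an inhibitor of nitric oxide synthesis, rose by 4.80 ± 0.52, and Sox2, a factor shared by trophoblast and pluripotent stem cells, rose by 3.04 ± 0.61 from 0 and 0.0540 to 11.05 and 4.93 FPKM (adjusted p = 0.00399). Cdx2, the factor that founds the trophectoderm, stood at 0 and 3.89 against 4.38 and 2.97 FPKM and did not pass (1.06 ± 0.62, adjusted p = 0.235); 1 lone library lay between the assembled ones. Fgfr2, the receptor for FGF4 in these cells, stood at 3.03 and 13.3 against 21.1 and 49.9 FPKM and did not pass either (2.14 ± 0.89, adjusted p = 0.103). Its groups did not overlap, which was also so for 58.3% of all tested genes. Tfap2c, an AP-2 factor of all trophoblast, fell from 140.5 and 99.4 to 31.8 and 35.3 FPKM (-1.79 ± 0.39, adjusted p = 0.00584). Gata3, a zinc finger factor that specifies trophoblast, fell from 47.0 and 34.3 to 8.55 and 9.18 FPKM (-2.06 ± 0.48, adjusted p = 0.00859), and the call was lost without replicate 1 of assembled TSC with BMP4 (adjusted p = 0.0536). Without replicate 1 of either group, 4 members of the list fell in place of 8.

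**Figure D2:**
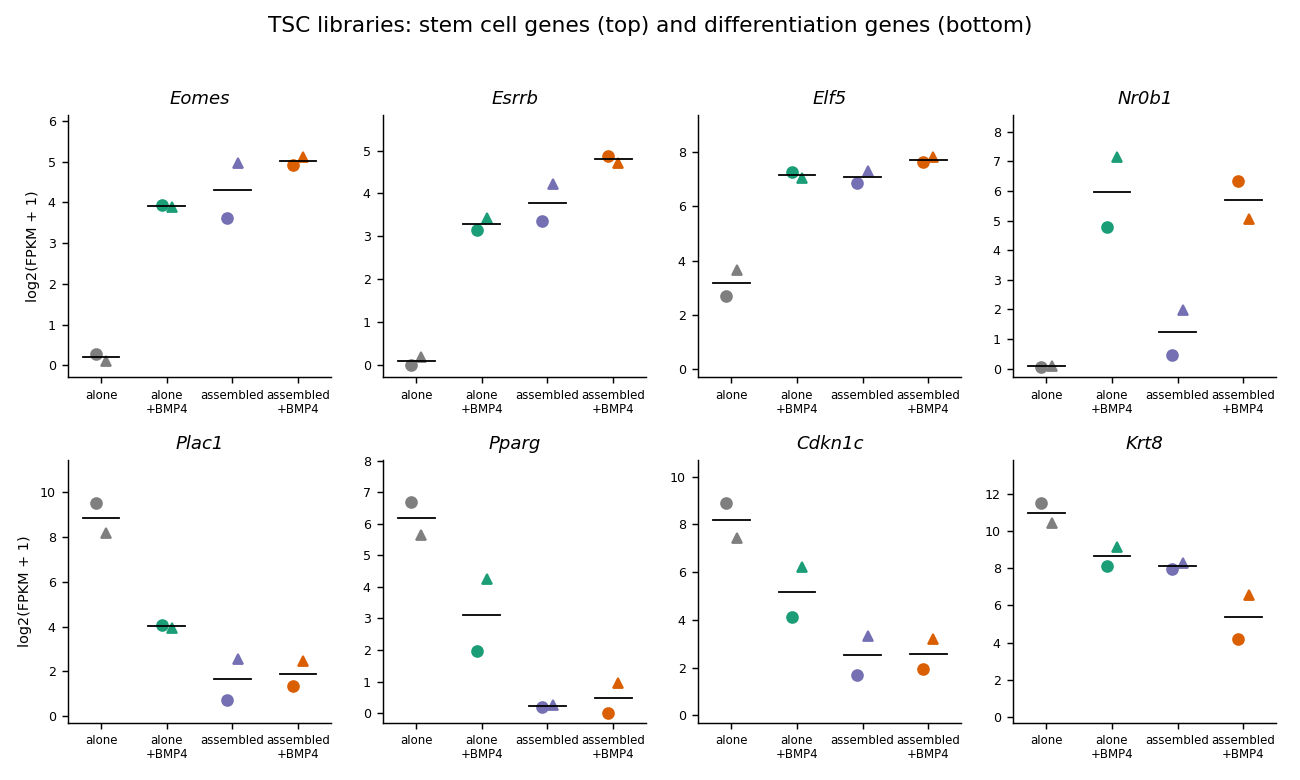
Log2(FPKM + 1) in the 8 TSC-origin libraries, by group, for 4 stem cell genes (top) and 4 differentiation genes (bottom); circles are replicate 1, triangles replicate 2, bars the mean of 2. Eomes, Esrrb and Elf5 are lowest in lone TSC and high in the other 3 groups, Nr0b1 is high in the 2 BMP4 groups, and the bottom row is highest in lone TSC.

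Differentiated trophoblast genes were lower as a group. Of 36 in the table, 22 passed the filter on low values, of which 14 fell and 0 rose in limma (2 were higher at an unadjusted p under 0.05). Those that fell are 63.6% of those tested, beside 13.1% of all genes. The median difference was -2.69. Without replicate 1 of assembled TSC with BMP4 the number that fell was 12. Pparg, the nuclear receptor of labyrinth trophoblast differentiation, stood at 102 and 49.5 FPKM in lone TSC and 0 and 0.957 FPKM in assembled TSC with BMP4 (-5.69 ± 0.59, adjusted p = 6.59e-05). Cdkn1c, the cell cycle inhibitor p57 of trophoblast giant cells, stood at 479.8 and 173 against 2.90 and 8.08 FPKM (-5.60 ± 0.69, adjusted p = 2.01e-04). Both fell to a few FPKM or less in both libraries.

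Dlx3, a homeobox factor needed in the labyrinth, stood at 87.2 and 81.0 against 2.80 and 4.50 FPKM (-4.22 ± 0.30, adjusted p = 5.98e-06), with lone TSC replicates that nearly coincided. Gata2, which drives placental hormone genes, stood at 97.8 and 67.2 against 1.14 and 10.8 FPKM (-4.03 ± 0.67, adjusted p = 0.00123). Ascl2, a basic helix-loop-helix factor of the spongiotrophoblast, stood at 45.3 and 114 against 2.84 and 12.0 FPKM (-3.37 ± 0.67, adjusted p = 0.0038). In Gata2 and Ascl2, replicate 2 of assembled TSC with BMP4 was the higher of its pair. Phlda2, an imprinted restrainer of placental growth, fell from 6773 and 4649.8 to 158 and 1107 FPKM (-3.74 ± 0.78, adjusted p = 0.00481), and the call was lost without replicate 1 of assembled TSC with BMP4 (adjusted p = 0.0504).

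Markers of late placental cell types differed widely in level. Tpbpa, of the spongiotrophoblast, and Prl3d1, the hormone of giant cells, were listed at 0 in all 4 libraries and were not tested. Gcm1, of syncytiotrophoblast, stood at 0 and 2.10 against 0 and 0.170 FPKM (-0.70 ± 0.41, adjusted p = 0.239). Hand1, a giant cell factor, stood at 149.6 and 288 against 103 and 143 FPKM (-0.77 ± 0.91, adjusted p = 0.593), and Igf2, an imprinted growth factor, at 1346 and 1104 against 299.9 and 537 FPKM (-1.60 ± 1.07, adjusted p = 0.305). Hand1 and Igf2 were thus abundant in every library of both groups, and neither difference passed. Their groups did not overlap, which was also so for 58.3% of all tested genes.

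Keratins and junction genes were also lower. Of 27 tested, 18 fell (66.7%, beside 13.1% of all genes) and 1 rose (3.70%, beside 10.5%), with a median of -1.91. The number that fell was 13 to 18 without single libraries, lowest without replicate 1 of assembled TSC with BMP4. Krt8, a keratin of simple epithelia, stood at 2932 and 1367 FPKM in lone TSC and 17.4 and 92.1 FPKM in assembled TSC with BMP4 (-5.60 ± 0.71, adjusted p = 2.56e-04). Its partner Krt18 stood at 2947 and 1705 against 125 and 249.9 FPKM (-3.66 ± 0.44, adjusted p = 1.89e-04), and Krt7, of trophoblast epithelium, at 117 and 137 against 0.580 and 4.09 FPKM (-5.49 ± 0.87, adjusted p = 0.00102). All 3 keratins were lower in replicate 1 than in replicate 2 of assembled TSC with BMP4.

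Cdh1, E-cadherin of adherens junctions, stood at 82.1 and 95.6 against 2.12 and 20.2 FPKM (-3.46 ± 0.63, adjusted p = 0.00233), and its difference was -2.08 without replicate 1 of assembled TSC with BMP4. Tjp3, a tight junction scaffold, stood at 29.1 and 28.2 against 1.07 and 1.04 FPKM (-3.85 ± 0.40, adjusted p = 6.59e-05), with replicates that nearly coincided in both groups. Cldn7, a claudin, stood at 132 and 225 against 0.528 and 12.8 FPKM (-5.24 ± 1.72, adjusted p = 0.043), and the call was lost without replicate 1 of lone TSC, replicate 2 of lone TSC or replicate 1 of assembled TSC with BMP4 (adjusted p = 0.0941 to 0.271). The member that rose was Perp, a desmosome protein that is also a p53 target, at 71.2 and 111 against 241 and 176 FPKM (1.20 ± 0.36, adjusted p = 0.0303; named after its values were seen), and its call was lost without replicate 1 of lone TSC, replicate 1 of assembled TSC with BMP4 or replicate 2 of assembled TSC with BMP4 (adjusted p = 0.0528 to 0.18). Keratin levels shared with processed pseudogenes are uncertain, since how the authors assigned shared reads is not given in the sources used here.

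Targets of FGF-ERK signalling were higher as a group, in a medium that held FGF4 for all groups. With all libraries, 70.0% of the tested members were called higher, beside 10.5% of all genes. Of 20 tested, 14 rose and 0 fell in limma (also 0 fell at an unadjusted p under 0.05), with a median of 2.69; the number that rose was 11 to 14 without single libraries. Etv4, an ETS factor induced by ERK, stood at 0.143 and 0.0528 FPKM in lone TSC and 22.9 and 16.8 FPKM in assembled TSC with BMP4 (4.24 ± 0.37, adjusted p = 2.29e-05). Etv5, its close relative, stood at 0.0640 and 0.208 against 23.7 and 15.0 FPKM (4.13 ± 0.37, adjusted p = 2.88e-05). Both were near 0 in lone TSC, and in both genes replicate 1 was the higher of the 2 assembled libraries.

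Feedback inhibitors of the pathway followed. Dusp6, a phosphatase that removes phosphate from ERK, stood at 0.206 and 0.0433 against 23.1 and 15.0 FPKM (4.13 ± 0.43, adjusted p = 6.59e-05). Spry2, an inhibitor of receptor tyrosine kinase signalling, stood at 0.477 and 0.599 against 27.6 and 17.9 FPKM (3.92 ± 0.38, adjusted p = 5.12e-05). Ccnd1, cyclin D1 of the G1 phase, stood at 0.356 and 0.682 against 16.04 and 13.9 FPKM (3.40 ± 0.53, adjusted p = 8.76e-04). All 3 were below 1 FPKM in both lone libraries and above 10 FPKM in both assembled ones.

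Ligands and receptors of the FGF family are given beside their targets. Of 13 tested, 1 rose and 1 fell (7.69% each, beside 10.5% and 13.1% of all genes), and the median was 0.03. Fgfr4, an FGF receptor, rose from 0 and 0.0379 to 4.70 and 4.80 FPKM (2.50 ± 0.35, adjusted p = 4.51e-04). Frs2, the adaptor that links FGF receptors to ERK, fell from 7.56 and 12.9 to 4.20 and 3.81 FPKM (-1.13 ± 0.35, adjusted p = 0.0337), but the call was lost without replicate 2 of lone TSC, replicate 1 of assembled TSC with BMP4 or replicate 2 of assembled TSC with BMP4 (adjusted p = 0.105 to 0.197).

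BMP-SMAD targets did not move 1 way. Of 17 tested, 3 rose and 3 fell, with a median of 0.30 that became -0.08 without replicate 1 of lone TSC. Id2, an inhibitor of helix-loop-helix factors, stood at 110.2 and 269.9 FPKM in lone TSC and 859 and 1226 FPKM in assembled TSC with BMP4 (2.56 ± 0.42, adjusted p = 0.00111). Bambi, a decoy receptor that dampens the signal, stood at 1.76 and 0.0231 against 8.20 and 6.92 FPKM (2.34 ± 0.42, adjusted p = 0.00207). Smad6, an inhibitory SMAD, stood at 1.18 and 1.78 against 4.06 and 6.07 FPKM (1.28 ± 0.30, adjusted p = 0.0091; named after its values were seen), and its call was lost without replicate 2 of assembled TSC with BMP4 (adjusted p = 0.0758). In all 3 the assembled libraries were above the lone ones without overlap, as was so for every called gene that rose.

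Id1, a direct target of the pathway, stood at 7.16 and 105 against 32.3 and 131 FPKM (1.17 ± 0.88, adjusted p = 0.366), and Id3 at 13.5 and 37.6 against 4.15 and 42.2 FPKM (-0.66 ± 0.76, adjusted p = 0.58). For both genes the replicates of each group lay further apart than the group means and the groups overlapped. The 3 members that fell, Gata2, Gata3 and Dlx3, are trophoblast regulators already described, and they are also counted among those genes. The called members are 17.6% of those tested in each direction, beside 10.5% and 13.1% of all genes. Without replicate 2 of lone TSC, 5 members rose.

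**Figure D3:**
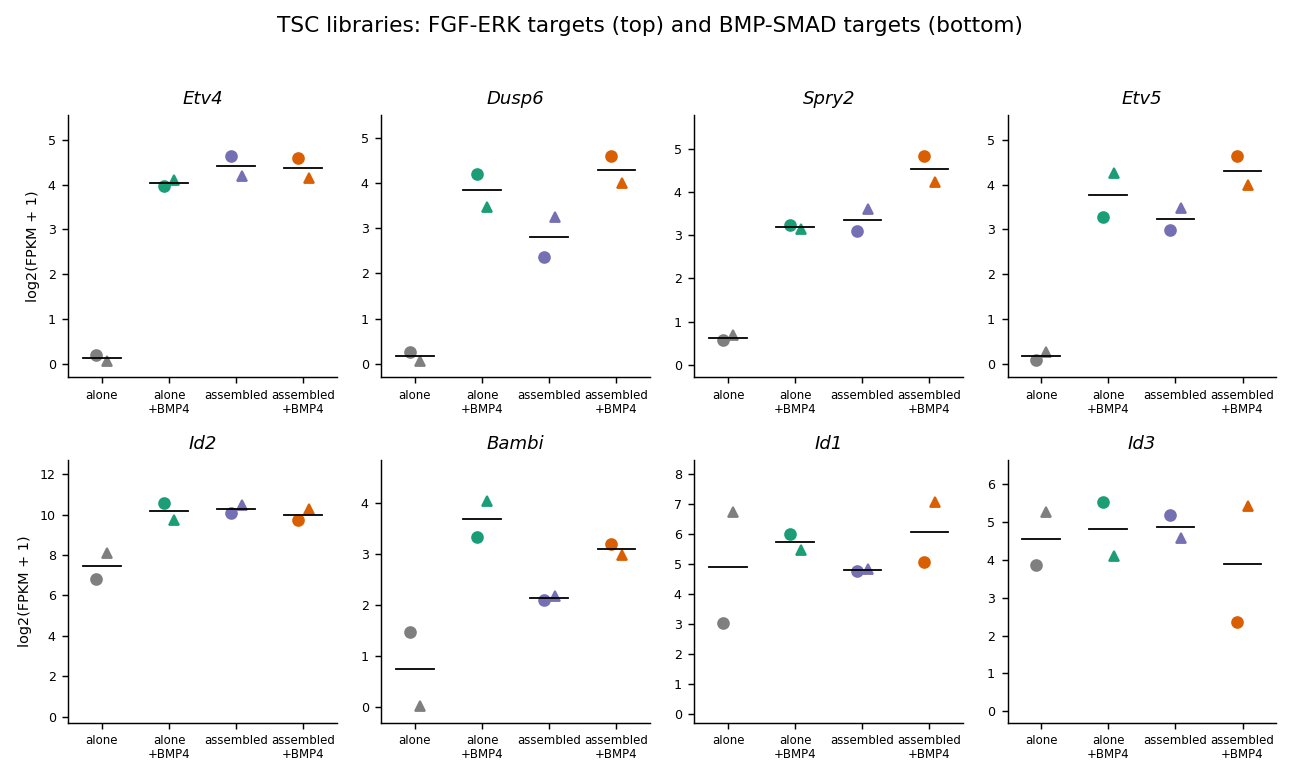
Log2(FPKM + 1) in the 8 TSC-origin libraries for 4 FGF-ERK targets (top) and 4 BMP-SMAD targets (bottom), with circles for replicate 1, triangles for replicate 2 and bars for the mean of 2. The FGF-ERK targets and Id2 are lowest in lone TSC and high in the other 3 groups, while the replicates of Id1 and Id3 are spread widely in lone TSC and assembled TSC with BMP4.

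Among BMP ligands, receptors and extracellular regulators, 5 of 19 tested rose and 0 fell in limma (1 was lower at an unadjusted p under 0.05), with a median of -0.04. Those that rose are 26.3%, beside 10.5% of all genes. Bmp4, the endogenous gene of the added ligand, stood at 0.267 and 0.623 FPKM in lone TSC and 25.5 and 35.5 FPKM in assembled TSC with BMP4 (4.44 ± 0.82, adjusted p = 0.0024). Bmp1, a secreted protease that cleaves the BMP antagonist chordin, stood at 2.05 and 2.82 against 34.4 and 43.2 FPKM (3.54 ± 0.53, adjusted p = 6.40e-04). Gdf6, a BMP family ligand, stood at 0.0229 and 0 against 3.28 and 3.57 FPKM (2.13 ± 0.39, adjusted p = 0.00225). Each was near or below 3 FPKM in both lone libraries. Bmp8b rose by 2.08 ± 0.63, but the call was lost without replicate 1 of lone TSC, replicate 1 of assembled TSC with BMP4 or replicate 2 of assembled TSC with BMP4 (adjusted p = 0.104 to 0.154). The fifth gene that rose was Fstl1, a secreted follistatin-like protein (1.77 ± 0.35, adjusted p = 0.00396).

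Of 12 Nodal pathway genes tested, 2 rose and 2 fell (median 0.65, 0.23 to 0.74 without single libraries). Each count is 16.7% of those tested, beside 10.5% higher and 13.1% lower among all genes. Foxh1, the DNA-binding partner of SMAD2 and SMAD3, rose from 0.834 and 4.86 to 43.3 and 92.6 FPKM (4.30 ± 0.45, adjusted p = 6.59e-05), and Smad2 fell from 43.4 and 55.9 to 20.7 and 22.7 FPKM (-1.15 ± 0.22, adjusted p = 0.00266). Pcsk6, a convertase that processes Nodal, rose by 1.96 ± 0.58, but the call was lost without replicate 2 of lone TSC, replicate 1 of assembled TSC with BMP4 or replicate 2 of assembled TSC with BMP4 (adjusted p = 0.0813 to 0.186). Furin, another convertase, fell by 1.49 ± 0.36, and the call was lost without replicate 1 of lone TSC or replicate 1 of assembled TSC with BMP4 (adjusted p = 0.067 to 0.0677). Of 15 Wnt pathway genes, 1 rose (Ccnd1) and 3 fell (Ascl2, Tcf7l1 and Myc), with a median of 0.01. For Tcf7l1 the call was lost without replicate 1 of lone TSC or replicate 1 of assembled TSC with BMP4 (adjusted p = 0.0529 to 0.0835), and for Myc the call was lost without replicate 1 of lone TSC or replicate 2 of assembled TSC with BMP4 (adjusted p = 0.101 to 0.189); 1 member fell without replicate 1 of lone TSC.

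Of 16 Hippo pathway genes, 0 rose in limma (2 were higher at an unadjusted p under 0.05) and 3 fell, with a median of -0.27. Those that fell are 18.8%, beside 13.1% of all genes. Wwtr1, the coactivator TAZ, fell from 29.3 and 44.6 to 7.47 and 8.62 FPKM (-2.04 ± 0.27, adjusted p = 3.04e-04), and Tead3, a DNA-binding partner of TAZ and YAP, from 9.94 and 4.70 to 1.64 and 0.995 FPKM (-1.78 ± 0.37, adjusted p = 0.00502). Amotl2, an angiomotin that holds these coactivators at junctions, fell by 1.44 ± 0.26. The 3 genes kept their calls without each of the 4 libraries.

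**Figure D4:**
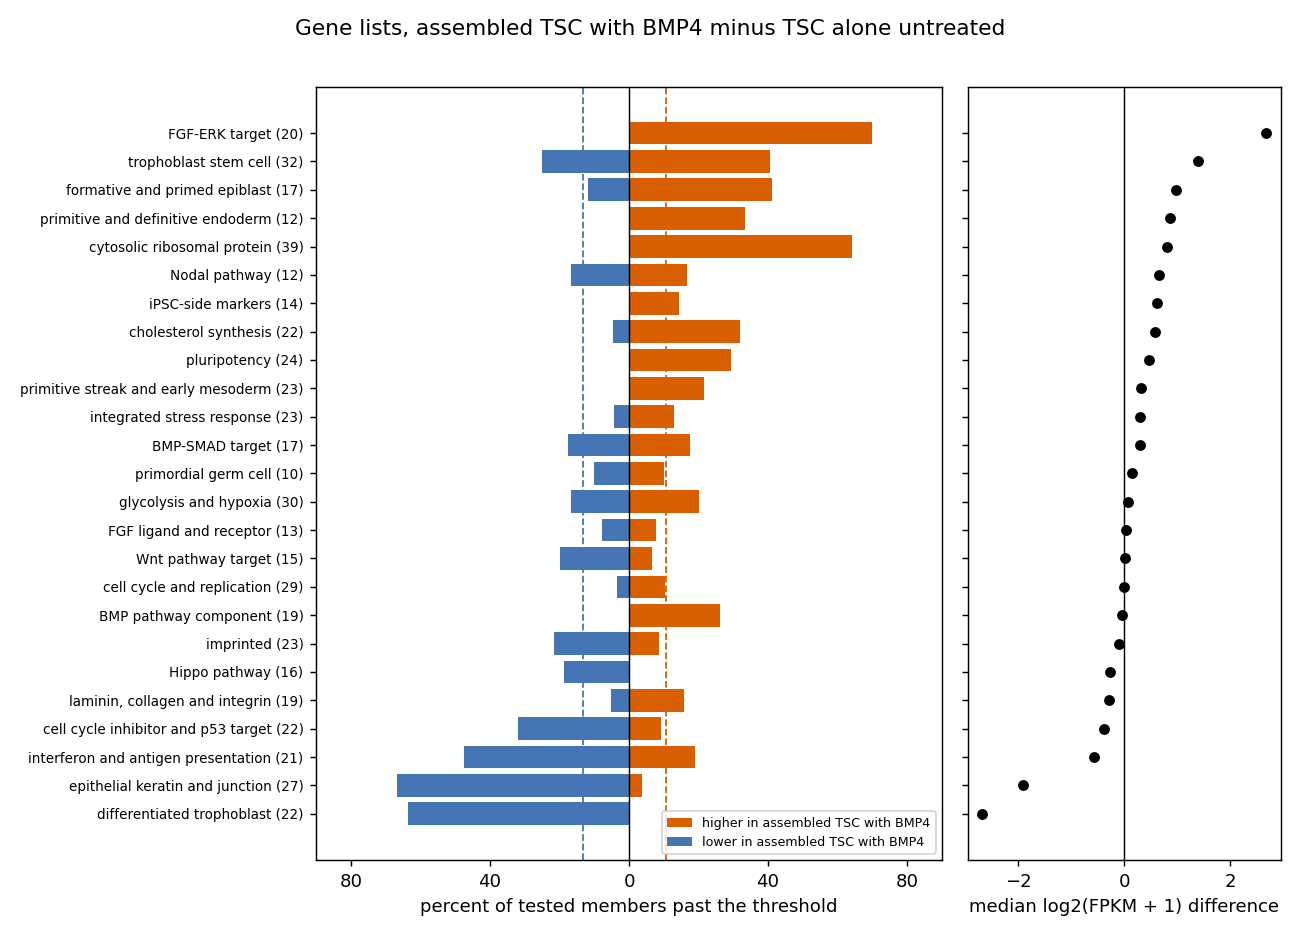
Left, percent of the tested members of each gene list (number tested in brackets) that were higher or lower in assembled TSC with BMP4 than in lone TSC at an adjusted p under 0.05, with dashed lines at the 10.5% and 13.1% of all genes. Right, the median log2(FPKM + 1) difference of the list. FGF-ERK targets have the highest median (2.69) and differentiated trophoblast genes the lowest (-2.69) among the lists with at least 10 tested members.

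Markers of embryonic lineages were low, with some exceptions. Of 23 primitive streak and early mesoderm genes, 5 rose and 0 fell in limma (also 0 at an unadjusted p under 0.05; median 0.31, 0.19 to 0.42 without single libraries), and 2 of the 5, Eomes and Bmp4, are also genes of the trophoblast. The 5 that rose are 21.7% of those tested, beside 10.5% of all genes. Kdr, a receptor for VEGF, stood at 0.0532 and 0.332 against 2.98 and 3.51 FPKM (1.84 ± 0.30, adjusted p = 0.00114). T, the brachyury factor of the streak, stood at 0.924 and 0.490 against 1.31 and 3.73 FPKM and did not pass (0.96 ± 0.84, adjusted p = 0.447). Of 8 amnion and extraembryonic mesoderm genes tested, 1 rose (12.5%, beside 10.5% of all genes) and 2 fell (25.0%, beside 13.1%). Vim, vimentin of mesenchymal cells, stood at 10.5 and 1.15 against 39.7 and 42.9 FPKM (3.09 ± 0.95, adjusted p = 0.0315), but the call was lost without replicate 2 of lone TSC, replicate 1 of assembled TSC with BMP4 or replicate 2 of assembled TSC with BMP4 (adjusted p = 0.112 to 0.235). The groups did not overlap in Kdr, T or Vim, which was also so for 58.3% of all tested genes. Of the streak genes, 3 rose without replicate 1 of either group.

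Of 24 pluripotency genes, 7 rose and 0 fell in limma (1 was lower at an unadjusted p under 0.05; median 0.47, 0.19 to 0.97 without single libraries), and 3 rose without replicate 1 of either group. Dppa4, a chromatin factor of pluripotent cells, rose from 14.6 and 24.0 to 101 and 89.4 FPKM (2.28 ± 0.34, adjusted p = 6.82e-04). Esrrb and Sox2 are also counted here, and Pou5f1 and Nanog did not pass. With all libraries, 29.2% of the pluripotency genes rose, beside 10.5% of all genes. Of 17 genes of the formative and primed epiblast, 7 rose and 2 fell (median 0.99, 0.94 to 1.50 without single libraries). These are 41.2% and 11.8% of those tested, beside 10.5% and 13.1% of all genes. Zic5 rose from 0.0167 and 0 to 9.50 and 8.63 FPKM (3.32 ± 0.41, adjusted p = 1.99e-04), while Sox4 fell from 8.23 and 3.54 to 0.144 and 0.290 FPKM (-2.41 ± 0.48, adjusted p = 0.00385). Dnmt3b, a de novo DNA methyltransferase, rose from 8.90 and 3.92 to 50.4 and 40.7 FPKM (2.73 ± 0.46, adjusted p = 0.00143). The iPSC-side markers, whose summed level was given above, had 2 of 14 higher (14.3%, beside 10.5% of all genes), Dnmt3b and Sox3. For Sox3 the call was lost without replicate 1 of lone TSC, replicate 2 of lone TSC or replicate 2 of assembled TSC with BMP4 (adjusted p = 0.103 to 0.345). The part of carried-over iPSC RNA in these values was not tested.

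Markers of other cell types were read as summed levels. The summed level of 16 fibroblast genes was 4.29 and 3.81 FPKM in lone TSC and 3.58 and 12.8 FPKM in assembled TSC with BMP4, and that of 15 blood and endothelial genes was 1.86 and 3.50 against 14.9 and 17.4 FPKM. For 15 neural and surface ectoderm genes it was 4.86 and 4.97 against 15.6 and 13.2 FPKM, and for 25 endoderm genes 61.9 and 159.9 against 298 and 342 FPKM. Of the members that passed the filter, 1 of 5, 2 of 6, 2 of 6 and 4 of 12 rose, and 1 neural and surface ectoderm gene, Krt14, fell. These counts stand beside 10.5% higher and 13.1% lower among all genes. The lists are small, and whether their counts exceed these shares was not tested. The fibroblast count was 0 without any 1 of the 4 libraries, and the neural and surface ectoderm count was 1 without either lone TSC library or replicate 2 of assembled TSC with BMP4. For Krt14 the call was lost without replicate 2 of lone TSC, replicate 1 of assembled TSC with BMP4 or replicate 2 of assembled TSC with BMP4 (adjusted p = 0.055 to 0.0823). The endoderm sum in assembled TSC with BMP4 lay within the range of the 8 iPSC-origin libraries (200.3 to 510.1 FPKM). The endoderm count was 2 without replicate 1 of lone TSC and 1 without replicate 1 of assembled TSC with BMP4. Sparc, a matrix protein of parietal endoderm and many other cells, held most of the endoderm sum with 33.4 and 117 against 229 and 295 FPKM (2.03 ± 0.45, adjusted p = 0.00695), and its difference was 1.15 without replicate 1 of lone TSC. Gata1, a blood factor also used in megakaryocytes, rose from 0.735 and 0.199 to 6.04 and 4.79 FPKM (2.15 ± 0.32, adjusted p = 6.15e-04).

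Cytosolic ribosomal protein genes were higher in small steps. Of 39 tested, 25 rose and 0 fell in limma (34 were higher and 0 lower at an unadjusted p under 0.05). Differences ran from 0.28 to 1.35, with a median of 0.80. Those called higher are 64.1% of those tested, beside 10.5% of all genes. Without single libraries the number that rose was 18 without replicate 2 and 10 without replicate 1 of lone TSC, and 4 without replicate 2 and 14 without replicate 1 of assembled TSC with BMP4, while the median was 0.69 to 0.89. With the 8 TSC-origin libraries in the fit 1 rose, and quantile normalization gave a median of 0.44. Rpl23 stood at 1179 and 1374 FPKM in lone TSC and 3189 and 3290.1 FPKM in assembled TSC with BMP4 (1.35 ± 0.25, adjusted p = 0.00263). These transcripts are short, with a median length of 1120 bases against 2933 over all tested genes, and over 13381 genes the difference had a Spearman correlation of -0.154 with transcript length. The part of length in these values was not tested. Reads shared with ribosomal pseudogenes also make single values uncertain.

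Of 22 cholesterol synthesis genes, 7 rose (31.8%, beside 10.5% of all genes) and 1 fell (4.55%, beside 13.1%), with a median of 0.59. The median was 0.04 without replicate 1 and 1.20 without replicate 2 of lone TSC, and the number that rose was 4 without replicate 1 and 12 without replicate 2 of lone TSC. Idi1, an isomerase of the isoprenoid steps, rose from 10.2 and 29.9 to 94.8 and 112 FPKM (2.48 ± 0.36, adjusted p = 5.68e-04). Nsdhl, of the late sterol steps, rose from 9.52 and 15.8 to 48.3 and 72.8 FPKM (2.18 ± 0.28, adjusted p = 2.74e-04). In both genes replicate 2 was the higher library of each group. Of 30 glycolysis and hypoxia genes, 6 rose and 5 fell (median 0.08); without replicate 1 of lone TSC, 1 rose and 7 fell, without replicate 1 of assembled TSC with BMP4, 1 rose and 2 fell, and without its replicate 2, 3 rose. With all libraries, the 6 and 5 of 30 stand beside 10.5% higher and 13.1% lower among all genes. Ndrg1, a hypoxia-responsive gene, fell from 135 and 206 to 6.13 and 11.5 FPKM (-4.15 ± 0.54, adjusted p = 2.87e-04), and the glucose transporter Slc2a1 from 835 and 717 to 163 and 237 FPKM (-1.97 ± 0.27, adjusted p = 3.99e-04). Members that rose included Slc2a3 (1.91 ± 0.58, adjusted p = 0.0310) and Hk2 (1.83 ± 0.41, adjusted p = 0.00683). Without replicate 1 of lone TSC their differences were 0.72 and 1.25. Both calls were lost without replicate 1 of either group.

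Of 29 cell cycle and replication genes, 3 rose (10.3%, beside 10.5% of all genes) and 1 fell (3.45%, beside 13.1%), with a median of 0.00. The 3 were Ccnd1, Bub1, a kinase of the spindle checkpoint (1.26 ± 0.21, adjusted p = 0.00123), and Pcna, the replication clamp (0.96 ± 0.19, adjusted p = 0.00353). Without replicate 2 of lone TSC, 5 rose. Of 22 cell cycle inhibitors and p53 targets, 2 rose and 7 fell (median -0.38), with 4 that fell without replicate 2 of lone TSC or replicate 1 of assembled TSC with BMP4. None rose without replicate 1 of either group, and the median was -0.83 without replicate 1 and -0.20 without replicate 2 of lone TSC. With all libraries, 9.09% of this list were higher and 31.8% lower, beside 10.5% and 13.1% of all genes. Cdkn1c was the member that fell most. Gadd45g, a stress-responsive growth inhibitor, fell from 52.3 and 73.2 to 0.362 and 5.17 FPKM (-4.44 ± 0.68, adjusted p = 8.00e-04). Of 23 genes of the integrated stress response, 3 rose and 1 fell; 1 rose without replicate 1 of lone TSC or either replicate of assembled TSC with BMP4, and 4 fell without replicate 1 of lone TSC. With all libraries, the shares of this list were 13.0% higher and 4.35% lower, beside 10.5% and 13.1% of all genes. Asns, asparagine synthetase, rose from 45.7 and 39.5 to 185 and 292 FPKM (2.42 ± 0.30, adjusted p = 2.03e-04), while Atf3, a stress-induced repressor, fell from 36.5 and 44.7 to 1.35 and 4.69 FPKM (-3.50 ± 0.49, adjusted p = 4.50e-04).

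Of 23 imprinted genes, 2 rose (8.70%, beside 10.5% of all genes) and 5 fell (21.7%, beside 13.1%). Mest, a paternally expressed gene of embryonic growth, rose from 0.600 and 11.2 to 131 and 89.2 FPKM (4.62 ± 0.65, adjusted p = 4.74e-04), and Peg10, a retrotransposon-derived gene required for the placenta, fell from 152 and 163 to 27.2 and 15.2 FPKM (-2.89 ± 0.54, adjusted p = 0.00264). Of 8 Rhox homeobox genes tested, 0 rose in limma (also 0 at an unadjusted p under 0.05) and 2 fell, against 0 without replicate 2 of lone TSC or replicate 1 of assembled TSC with BMP4. Rhox6 fell from 8183 and 4481 to 214 and 586 FPKM (-4.09 ± 1.38, adjusted p = 0.0475), but the call was lost without any 1 of the 4 libraries (adjusted p = 0.0823 to 0.226). Copies of this cluster share sequence, so their single values are uncertain. The 2 that fell with all libraries are 25.0% of those tested, beside 13.1% of all genes.

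Of 21 interferon and antigen presentation genes, 4 rose and 10 fell (median -0.58, and -1.37 without replicate 1 of lone TSC), and 6 fell without replicate 2 of lone TSC or replicate 1 of assembled TSC with BMP4. Without either replicate of assembled TSC with BMP4, 2 rose. H2-D1, a class I histocompatibility chain, fell from 516 and 312 to 38.3 and 39.7 FPKM (-3.33 ± 0.40, adjusted p = 1.91e-04). Ifitm2, a membrane protein against viral entry, rose from 27.2 and 53.8 to 392 and 239 FPKM (2.97 ± 0.44, adjusted p = 6.40e-04). Both belong to families of near-identical copies, so reads may be split between them. Called DNA methylation genes are 33.3% of those tested in each direction, beside 10.5% and 13.1% of all genes. Of 9 DNA methylation genes, 3 rose and 3 fell, against 1 and 1 without replicate 1 of lone TSC. The maintenance enzyme Dnmt1 fell from 45.4 and 34.9 to 8.35 and 11.2 FPKM (-1.93 ± 0.27, adjusted p = 4.51e-04), and Dnmt3a fell by 1.78 ± 0.40, but the call was lost without replicate 1 of lone TSC (adjusted p = 0.0592).

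The same lists were read with 1 factor changed from lone TSC, in comparisons that share the lone TSC libraries with the main one and with each other. Assembly without BMP4 gave 2575 genes (19.2%), 1208 higher (9.01%) and 1367 lower (10.2%), and BMP4 without assembly gave 1625 genes (12.1%), 856 higher (6.39%) and 769 lower (5.74%). Among FGF-ERK targets, 10 of 20 rose and 0 fell with assembly alone (median 1.44), and 10 of 20 rose and 0 fell with BMP4 alone (median 1.80); also 0 were lower at an unadjusted p under 0.05 in either limma comparison. Among trophoblast stem cell genes, 10 of 32 rose and 4 fell with assembly alone, and 11 of 32 rose and 4 fell with BMP4 alone. Among differentiated trophoblast genes, 1 of 22 rose and 14 fell with assembly alone (median -1.59), and 0 of 22 rose and 9 fell with BMP4 alone (median -1.77; also 0 higher at an unadjusted p under 0.05). Among keratin and junction genes, 0 of 27 rose and 8 fell with assembly alone (2 higher at an unadjusted p under 0.05), and 1 of 27 rose and 7 fell with BMP4 alone. In each single-factor comparison, called FGF-ERK targets were higher, and called differentiation genes were lower with the exception of 1 under assembly.

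Levels of single genes show the same 4 groups. Dusp6 stood at 17.5 and 10.0 FPKM in lone TSC with BMP4 and 4.16 and 8.51 FPKM in assembled TSC without BMP4. Eomes stood at 14.3 and 13.7 FPKM and 11.2 and 30.5 FPKM in these groups, and Elf5 at 153 and 130.3 FPKM and 116 and 159 FPKM. All of these libraries were above both lone TSC libraries. Pparg stood at 2.91 and 18.2 FPKM in lone TSC with BMP4 and 0.143 and 0.197 FPKM in assembled TSC without BMP4, all below both lone TSC libraries and with the assembled ones the lower. Krt8 stood at 282 and 569 FPKM in lone TSC with BMP4 and 247 and 308 FPKM in assembled TSC without BMP4, between lone TSC and assembled TSC with BMP4 in every library.

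Adding BMP4 to assembled TSC gave few calls. Assembled TSC with BMP4 against assembled TSC without it gave 67 of 13406 genes (0.500%), 50 higher (0.373%) and 17 lower (0.127%). This count was 9 without replicate 1 and 128 without replicate 2 of assembled TSC with BMP4, and 18 without either replicate of assembled TSC without BMP4. Il5ra stood at 0.0484 and 1.13 FPKM without BMP4 and 29.9 and 25.9 FPKM with it (4.27 ± 0.35, adjusted p = 8.09e-05; called without each of the 4 libraries in turn). Ubd, a ubiquitin-like protein, stood at 1.34 and 1.36 against 32.1 and 18.9 FPKM (3.45 ± 0.27, adjusted p = 6.67e-05; called without each of the 4 libraries in turn). Nr0b1 stood at 0.373 and 2.99 against 80.5 and 31.9 FPKM (4.47 ± 0.69, adjusted p = 0.0105; lost without replicate 1 of assembled TSC without BMP4 or replicate 1 of assembled TSC with BMP4, adjusted p = 0.113 to 0.165). In all 3 both libraries with BMP4 were above both without it, which the naming rule for this comparison required.

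The summed level of the 14 iPSC-side markers moved in this comparison, from 799.6 and 1202 FPKM without BMP4 to 248 and 711 FPKM with it, and its part in these results was not tested. Ctsa, the lysosomal protease cathepsin A, was lower with BMP4 in assembled TSC, at 21.4 and 14.7 against 0.463 and 4.62 FPKM (-2.71 ± 0.46, adjusted p = 0.0201; lost without 3 of the 4 libraries in turn, adjusted p = 0.0838 to 0.17, and kept without replicate 2 of assembled TSC with BMP4). It stood below 1 FPKM in both lone TSC libraries and at 21.6 to 33.0 FPKM in the 8 iPSC-origin libraries. Of the 17 BMP-SMAD targets, 0 passed in this limma comparison, in which 0.500% of all genes did (1 higher and 1 lower at an unadjusted p under 0.05, beside 4.13% and 4.60% of all genes). Id2 stood at 1080.3 and 1429.8 FPKM in assembled TSC without BMP4 and 859 and 1226 FPKM with it, with a difference of -0.28 ± 0.42 that did not pass.

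Against lone TSC with BMP4, a contrast of assembly in the presence of BMP4, 40 genes passed (0.298%), 21 higher (0.157%) and 19 lower (0.142%). This count was 179 without replicate 1 and 4 without replicate 2 of lone TSC with BMP4, and 9 without replicate 1 of assembled TSC with BMP4. Crabp1 stood at 4.22 and 3.29 FPKM in lone TSC with BMP4 and 30.6 and 26.9 FPKM in assembled TSC with BMP4 (2.65 ± 0.33, adjusted p = 0.00762; lost without replicate 2 of lone TSC with BMP4 or replicate 1 of assembled TSC with BMP4, adjusted p = 0.0756 to 0.0996). Hmga2, a chromatin architecture protein of embryonic cells, stood at 4.30 and 4.96 against 26.4 and 28.9 FPKM (2.35 ± 0.36, adjusted p = 0.0261; lost without 3 of the 4 libraries in turn, adjusted p = 0.0703 to 0.164, and kept without replicate 1 of lone TSC with BMP4). Aldh3b2 stood at 6.11 and 6.78 against 0.0401 and 0.257 FPKM (-2.70 ± 0.27, adjusted p = 0.00166; called without each of the 4 libraries in turn). Crabp1 and Hmga2 were higher and Aldh3b2 lower in both assembled libraries than in both lone ones, as the naming rule required.

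In Crabp1, the difference from assembled TSC without BMP4 was 2.35 ± 0.33 (adjusted p = 0.00887; lost without replicate 1 of assembled TSC without BMP4 or replicate 1 of assembled TSC with BMP4, adjusted p = 0.0732 to 0.101), and in Aldh3b2 it was -1.77 ± 0.27 (adjusted p = 0.0105; lost without 3 of the 4 libraries in turn, adjusted p = 0.0694 to 0.145, and kept without replicate 2 of assembled TSC with BMP4). Il5ra differed from lone TSC with BMP4 by 1.93 ± 0.35 (adjusted p = 0.0393; lost without any 1 of the 4 libraries, adjusted p = 0.0768 to 0.224). For these 3 genes the assembled libraries with BMP4 therefore stood beyond both single-factor groups, in comparisons that share those 2 libraries. Among the FGF-ERK targets, 0 of 20 passed against either single-factor group in limma, where 0.500% and 0.298% of all genes did. At an unadjusted p under 0.05, 8 were higher than in assembled TSC without BMP4 and 5 higher than in lone TSC with BMP4, beside 4.13% and 5.66% of all genes, and 2 and 0 were lower. Among the differentiated trophoblast genes, 0 of 22 passed against either group. At an unadjusted p under 0.05, 5 and 9 were lower, beside 4.60% and 8.68% of all genes, and 1 and 0 were higher. Among the 27 keratin and junction genes, 0 and 1 passed as lower and 0 as higher, with medians of -1.18 and -0.81. At an unadjusted p under 0.05 in limma, 15 and 12 of them were lower, beside the same shares, and 1 and 1 were higher.

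**Figure D5:**
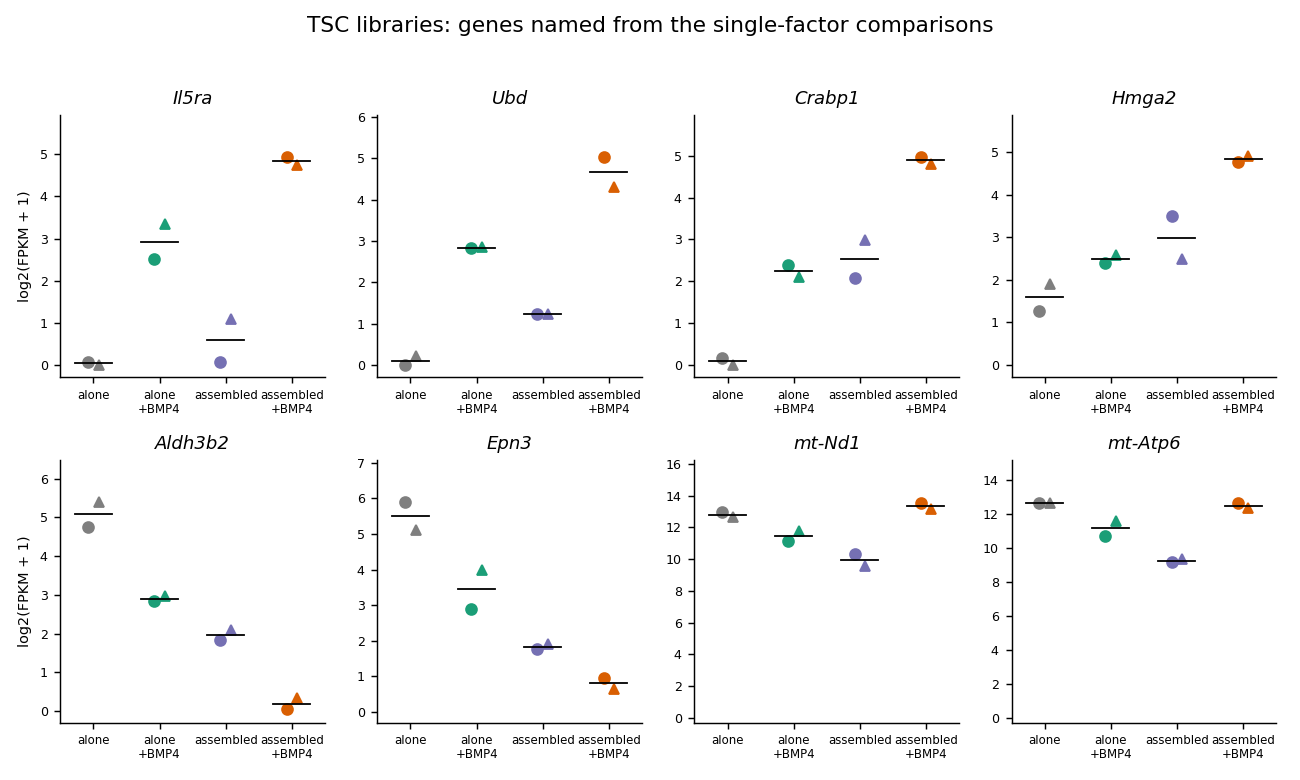
Log2(FPKM + 1) in the 8 TSC-origin libraries for 8 genes named from the comparisons with 1 factor changed; circles are replicate 1, triangles replicate 2, bars the mean of 2. Il5ra, Ubd, Crabp1 and Hmga2 are highest and Aldh3b2 and Epn3 lowest in assembled TSC with BMP4, while mt-Nd1 and mt-Atp6 are lowest in assembled TSC without BMP4.

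Whether the combined change equals the sum of the separate changes was tested with the interaction term, which subtracts the BMP4 difference in lone TSC from that in assembled TSC. It passed for 235 genes (1.75%), 99 positive (0.738%) and 136 negative (1.01%), with these counts outside 1.5 times that: 47 and 469 without replicates 1 and 2 of lone TSC with BMP4, 47 and 144 without those of assembled TSC without BMP4, and 70 and 151 without those of assembled TSC with BMP4. Eomes rose by 4.09 ± 0.35 with assembly alone, 3.71 ± 0.35 with BMP4 alone and 4.82 ± 0.35 with both (interaction -2.98 ± 0.50, adjusted p = 0.014; lost without replicate 1 of lone TSC with BMP4 or replicate 1 of assembled TSC with BMP4, adjusted p = 0.0552 to 0.0599). The 3 differences share the lone TSC libraries. Etv4 differed by 4.27 ± 0.37, 3.90 ± 0.37 and 4.24 ± 0.37 in the same order (interaction -3.93 ± 0.52, adjusted p = 0.00487; called without each of the 8 libraries in turn), and Id2 by 2.84 ± 0.42, 2.72 ± 0.42 and 2.56 ± 0.42 (interaction -3.00 ± 0.59, adjusted p = 0.0292; lost without replicate 1 of lone TSC with BMP4, replicate 1 of assembled TSC without BMP4, replicate 2 of assembled TSC without BMP4 or replicate 1 of assembled TSC with BMP4, adjusted p = 0.0767 to 0.106). In each, the combined difference was about the size of either single one and below their sum.

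Plac1 gave -7.24 ± 0.78, -4.86 ± 0.78 and -6.97 ± 0.78 (interaction 5.13 ± 1.10, adjusted p = 0.0417; lost without 6 of the 8 libraries in turn, adjusted p = 0.056 to 0.153, and kept without replicate 2 of lone TSC or replicate 2 of assembled TSC without BMP4). Tmem98, a transmembrane protein, gave 4.37 ± 0.30, 4.58 ± 0.30 and 4.62 ± 0.30 (interaction -4.32 ± 0.43, adjusted p = 8.42e-04; called without each of the 8 libraries in turn). Krt8 gave -2.85 ± 0.71, -2.32 ± 0.71 and -5.60 ± 0.71, with an interaction of -0.43 ± 1.01 that did not pass. For Krt8 the combined difference was thus close to the sum of the single ones, with an SE too wide to place it further.

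Transcripts encoded in mitochondrial DNA, a list made after values were seen, were followed as well. Of 37 in the table, 15 were tested; 0 passed between assembled TSC with BMP4 and lone TSC in limma (also 0 at an unadjusted p under 0.05). The median was -0.28, and it was 0.39 without replicate 1 of lone TSC and 0.25 without replicate 2 of assembled TSC with BMP4. mt-Nd1, a subunit of respiratory complex I, stood at 7878 and 6456 FPKM in lone TSC and 11877 and 9075 FPKM in assembled TSC with BMP4. It stood at 2222 and 3537 FPKM in lone TSC with BMP4 and 1251 and 771 FPKM in assembled TSC without BMP4. The groups with neither factor or with both were thus high, and the groups with 1 factor were lower. Its difference between assembled TSC with and without BMP4 was 3.40 ± 0.46, adjusted p = 0.00859 (lost without replicate 2 of assembled TSC without BMP4 or replicate 1 of assembled TSC with BMP4, adjusted p = 0.0788 to 0.0984), and its interaction was 4.75 ± 0.65, adjusted p = 0.00569 (called without each of the 8 libraries in turn). mt-Atp6, a subunit of ATP synthase, had an interaction of 4.74 ± 0.62, adjusted p = 0.00487 (called without each of the 8 libraries in turn). Of the 15 transcripts, 8 were higher with BMP4 in assembled TSC and 9 had a positive interaction, beside 0.373% and 0.738% of all genes. Among them, mt-Nd1, mt-Atp6 and mt-Co2 had been named by rule from the first of these comparisons. From the interaction the rule had named mt-Nd1, mt-Atp6, mt-Nd4 and mt-Cytb. The list was made with these calls known, so its counts beside the shares of all genes add no support. None of the 8 kept the call for BMP4 in assembled TSC without each of the 4 libraries in turn: mt-Nd1 and mt-Co3 kept it in 2 cases, mt-Atp6, mt-Co2, mt-Nd4 and mt-Nd3 in 1, and mt-Cytb and mt-Nd2 in 0. Of the 9 interactions, those of mt-Nd1, mt-Atp6 and mt-Co3 were called without each of the 8 libraries in turn. mt-Co3, mt-Nd3 and mt-Nd2 were named after their values were seen. Nuclear copies of mitochondrial DNA make single values uncertain, and whether RNA quality moved with these transcripts was not tested.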

How the data were processed

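RNA of 16 mouse Smart-seq2 libraries (8 groups, 2 libraries each) was analysed from 1 deposited table of FPKM values, with 31663 entries. The FPKM values were made by the authors; CASAVA, TopHat2 and the builds mm9 and hg19 are named, per the submitters' processing notes, without versions or roles, and neither the program that computed FPKM nor its annotation is given in the sources used here. Read depth is unknown, and FPKM totals ran from 666077 to 947859 per library. Genes at 1 FPKM or more in at least 2 libraries (13406) were tested on log2(FPKM + 1) with limma 3.58.1 in R 4.3.3: 8 group means over all 16 libraries, 8 residual degrees of freedom, trended empirical Bayes and Benjamini-Hochberg adjustment over all tested genes at 0.05. The fit was tested on simulated data. Promoters came from RefSeq (GRCm38.p6), matched by symbol.

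Members and lists were chosen with earlier results of these data known. Named genes were the 12 largest changes in each direction (6 for the other comparisons) among called genes with separated groups and at least 5 FPKM in the higher group, predicted and small RNA names left out, up to 5 called members of each list, and a fixed set of pathway genes; some genes this rule picked are not reported here. The alternatives were another pseudocount, no filter, 3 rescalings, library weights, the replicate number as a block, fewer libraries in the fit and each library left out. Python 3.11.15 with pandas 2.3.3, numpy 2.4.6 and matplotlib 3.10.9 made the summaries and figures.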

Additional observations from a re-analysis of the deposited data

Results flagged for a closer look

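The effect of BMP4 differed between lone and assembled TSC by the test of the difference itself for 235 genes (limma, adjusted p under 0.05), and the named ones are given with their values. Negative differences were found for Eomes (-2.98), Ddah1 (-4.99), Id2 (-3.00), Etv4 (-3.93), Tmem98 (-4.32), the fucose mutarotase gene Fuom (-5.39), Ly6a (-4.88), Eras (-4.79) and Mrpl23 (-4.47). Positive differences were found for Plac1 (5.13), the serpin gene Serpinb9b (4.75), mt-Nd1 (4.75), mt-Atp6 (4.74), mt-Nd4 (4.75) and mt-Cytb (4.46).

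Ddah1 differed from lone TSC by 4.62 with assembly alone, 5.17 with BMP4 alone and 4.80 with both, and Fuom by 4.27, 4.23 and 3.12. Serpinb9b differed by -4.60, -3.78 and -3.63. These 3 genes, mt-Nd1, mt-Atp6 and Tmem98 were called without each of the 8 libraries in turn. Without single libraries, Ly6a was called in 1 of 8 cases, Plac1 in 2, and Eras, Mrpl23, mt-Nd4 and mt-Cytb in 5 each.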

How the results depend on the processing

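The count of 3161 genes between assembled TSC with BMP4 and lone TSC was 7 with only the 4 libraries in the fit, 1643 with the 8 TSC-origin libraries, and 1617 to 2759 without single libraries. For BMP4 within assembled TSC, the 67 genes became 0 with only the 2 groups in the limma fit (1151 at an unadjusted p under 0.05), 3 with the TSC-origin libraries, 28 with a pseudocount of 0.1, and 9 to 128 without single libraries. Against lone TSC with BMP4, the 40 genes became 1 with only the 2 groups, 3 with the TSC-origin libraries, 8 with library weights, 7 with a pseudocount of 0.1, and 4 to 179 without single libraries. The 235 interactions became 12 with the TSC-origin libraries, 47 with library weights, 155 without the filter on low values, and 47 to 469 without single libraries; a fit of only the groups compared is there the TSC-origin fit. Of the 136 named genes called in the main comparison, 96 stayed called without each of its 4 libraries in turn, and none changed direction in any setting run. Of 403 list medians over 13 settings, 44 moved by more than the replicate spread and 20 changed sign. The cause of these changes was not tested beyond the fewer libraries in the smaller fits.

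Replicate numbers are shared by the groups, but no label says that they pair libraries, and over 28 pairs of groups the deviations of same-numbered libraries correlated with -0.185 to 0.119 (median -0.0217). With the replicate block the main count was 3064, the count against lone TSC with BMP4 was 17 and the interaction count was 134. Without read depth, no counting error can be given for any value.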

Other observations

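The 7 entries called with only the 4 libraries in the fit were Gm22710, Gm22752, Gm22884, Gm23639, Gm24289, Gm24888 and Gm26205, picked after their values were seen. All 7 were listed at 0 in both lone TSC libraries and between 317 and 2054 FPKM in assembled TSC with BMP4. A value listed at 0 can be a failed estimate in a table without counts, and no fold is given.

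Among laminin, collagen and integrin genes, 3 of 19 tested rose (15.8%, beside 10.5% of all genes) and 1 fell (5.26%, beside 13.1%). Col18a1, a basement membrane collagen, stood at 0.266 and 0.713 FPKM in lone TSC and 10.8 and 9.67 FPKM in assembled TSC with BMP4 (2.93 ± 0.61, adjusted p = 0.00484). Itga7, a laminin receptor chain, stood at 0.160 and 1.12 against 9.02 and 5.29 FPKM (2.34 ± 0.40, adjusted p = 0.00146), and Itgav, a chain of fibronectin and vitronectin receptors, at 3.27 and 4.98 against 20.8 and 17.4 FPKM (1.99 ± 0.36, adjusted p = 0.00206). The member that fell was Hspg2, the proteoglycan perlecan (-1.37 ± 0.38, adjusted p = 0.0201), for which the call was lost without replicate 1 of lone TSC, replicate 1 of assembled TSC with BMP4 or replicate 2 of assembled TSC with BMP4 (adjusted p = 0.0792 to 0.159). Of 10 primordial germ cell genes tested, 1 rose and 1 fell (10.0% each, beside 10.5% and 13.1% of all genes).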
